A study of Mus musculus with 33 samples.

Results

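Hepatocellular carcinomas of E2f1 knock-in mice (1KI) and of E2f3b knock-in mice (3bKI) were set against each other through the 12 normal livers that both tumour groups share. The tumours were normalized in separate runs, so their values were never subtracted from each other directly. For every gene the mean change of the 5 1KI tumours from the 12 normal livers was taken in normalization 1, the mean change of the 4 3bKI tumours from those livers was taken in normalization 2, and the 3bKI change was subtracted from the 1KI change. Of 18193 genes tested, 183 differed between the tumour groups by this measure (151 higher and 32 lower in 1KI), and 174 moved alike (104 higher and 70 lower than in normal liver in both groups). All changes are differences of log2 values.

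The arrays cover 21 livers or liver tumours of mice aged 12 months on a mixed background of FVB/NT, 129S1/Svlmj and C57BL/6NT. The normal livers were 7 wild-type livers (wt) and 5 livers of mice lacking E2f3a (3aKO), and every one of them is held in both normalizations. The 1KI and 3bKI arrays are labelled as carcinomas that arose spontaneously, so genotype and tumour status coincide and cannot be told apart in a change from normal liver. In the comparison of the tumours, genotype coincides with the normalization run, and the 12 shared arrays are the only bridge. The locus and the promoter of the knock-in alleles are not given in the sources used here, and nothing in the labels says that the samples of a group came from separate animals, so p-values measure the spread between these samples.

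E2F proteins are transcription factors that bind promoters of genes needed for DNA synthesis and cell division. E2f1 and E2f3a are known as activators that are released when pocket proteins such as the retinoblastoma protein are phosphorylated in late G1. E2f3b is made from the same gene as E2f3a, from a start site inside the gene, and lacks the amino terminus of E2f3a. In the liver, E2F activity is best known from regeneration, polyploidy of hepatocytes and carcinoma.

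Several features of the arrays bear on every value. Over all genes, the same normal array correlated between the runs with r of 0.9989 to 0.9990, and the error that the bridge adds to a gene's difference had a median of 0.0130, against 0.0714 if the 12 arrays had been different livers in each run. The same arrays enter both runs, so these values measure only the shift between the runs. They do not cover differences in RNA quality between the 1KI and 3bKI arrays. The beta-actin control probe sets at the transcript's 3' and 5' ends differ more as RNA degrades, and their log2 ratio (3' over 5') lay between 0.91 and 1.28 in 1KI and between 0.70 and 0.87 in 3bKI. Among the normal livers, wt replicates 6 and 7 had 0.87 and 0.63 in normalization 1, and the other 10 had 1.09 to 1.38 (1.06 to 1.37 in normalization 2). Sex, read from Xist and 3 Y-linked genes, was 2 females and 3 males in 1KI, 3 females and 1 array of unclear sex (replicate 2) in 3bKI, and 6 females and 6 males among the normal livers. In a principal component analysis of the tumours' changes, 1KI replicates 3 and 4 stood apart on the first component, which held 40.8% of the variance, with scores of 42.4 and 53.6, and 3bKI replicate 2 followed at 22.5. The hepatocyte list had a median log2 level of 12.78, and of 21 oncofetal and liver tumour markers 7 rose in 1KI and 10 in 3bKI, where 2.21% and 5.17% of all genes rose.

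**Figure D1:**
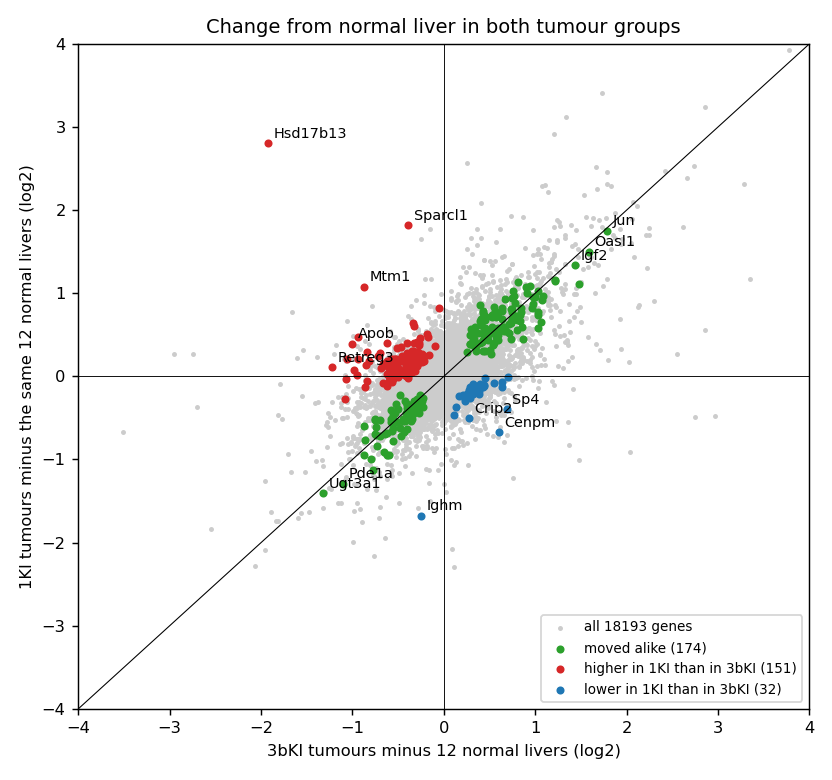
Each point is 1 of 18193 genes. The x axis gives the mean log2 change of the 4 3bKI tumours and the y axis that of the 5 1KI tumours, each from the 12 normal livers of its own normalization. The 183 genes that differed lie off the diagonal, and the 174 genes that moved alike lie along it. All of the 151 higher genes lie to the left of 0 on the x axis.

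The targeted genes gave small differences. E2f1 lay at 0.12, 0.13, 0.44, -0.20 and 0.33 above the normal mean in the 1KI tumours, and at 0.12, -0.01, 0.48 and 0.28 in the 3bKI tumours. The groups overlapped, and the difference was -0.06 ± 0.15 (SE; 95% interval -0.39 to 0.27; adjusted p = 0.844). E2f3 lay at 0.38, 0.48, 1.05, 0.84 and 0.52 in 1KI and at -0.05, 0.38, 0.32 and 0.11 in 3bKI, against -0.35 to 0.28 in the normal livers. It rose in 1KI against normal liver by 0.66 ± 0.12 (adjusted p = 0.00921), while in 3bKI, whose knocked-in protein is a product of this gene, the change was 0.19 ± 0.12 (adjusted p = 0.311). The difference of 0.47 ± 0.16 (interval 0.12 to 0.82) did not pass (adjusted p = 0.133). Another E2f3 probe set gave changes of 0.30 in 1KI and 0.41 in 3bKI, a difference of -0.11 ± 0.07. For the first probe set, the normal mean pools 3aKO livers at -0.35 to 0.12 with wt livers at -0.19 to 0.28. Which transcripts of the knock-in alleles these probe sets read was not analysed here, so the values do not check the genotypes. RefSeq holds 2 start windows for E2f3 on the minus strand of chromosome 13 in GRCm38.p6, each 300 bases long from 250 before to 50 after a start. They are shown because the 2 E2f3 proteins come from different starts and because 1 of them holds a match to an E2F motif, in capitals, 11 bases before its start. The first is chr13:29986014-29986313 and the second, which lies further downstream and holds no match, is chr13:29984342-29984641.
E2f3 upstream start: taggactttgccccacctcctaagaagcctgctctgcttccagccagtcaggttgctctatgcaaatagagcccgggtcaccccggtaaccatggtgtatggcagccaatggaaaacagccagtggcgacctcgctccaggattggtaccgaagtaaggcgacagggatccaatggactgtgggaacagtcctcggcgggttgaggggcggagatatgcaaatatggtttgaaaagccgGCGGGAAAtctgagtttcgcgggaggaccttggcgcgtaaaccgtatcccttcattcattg
E2f3 downstream start: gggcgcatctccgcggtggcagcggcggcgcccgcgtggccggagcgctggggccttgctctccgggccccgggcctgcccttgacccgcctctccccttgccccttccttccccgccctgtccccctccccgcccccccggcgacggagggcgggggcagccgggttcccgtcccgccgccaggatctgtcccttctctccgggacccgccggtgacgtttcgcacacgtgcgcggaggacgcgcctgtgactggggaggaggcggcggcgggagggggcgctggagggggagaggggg

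Of the E2F and pocket protein list, which includes both genes, 0 of 13 measured members differed between the tumour groups by limma's test. E2f5, a repressor of the family, came nearest, with values of -0.26 to -0.03 in 1KI and 0.05 to 0.52 in 3bKI, a difference of -0.53 ± 0.11 (adjusted p = 0.0568), but its other probe sets gave 0.09 ± 0.11 and 0.22 ± 0.14. Rb1, the retinoblastoma gene, gave 0.47 ± 0.14 (adjusted p = 0.0989), and Tfdp1, the dimer partner of E2Fs, gave 0.30 ± 0.10 (adjusted p = 0.129). In DNA replication and G1/S, the best known E2F targets, 0 of 47 members differed, 30 lay above 0, and the median difference was 0.09 beside -0.04 over all genes. Here and below, every fit with sex as a covariate also left out 3bKI replicate 2, whose sex is unclear. With sex as a covariate 39 of 47 lay above 0 with a median of 0.29, and in females alone 42 of 47 with 0.35. Without 1KI replicate 5 the median was -0.04.

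Across all genes, 151 were higher in 1KI than in 3bKI (0.830% of those tested) and 32 were lower (0.176%), by limma with Benjamini-Hochberg adjustment, and 3955 had an unadjusted p under 0.05. In all 183 the 5 1KI and the 4 3bKI values did not overlap, which held for 11% of all genes. Differences of at least 2-fold were found in 13 of the higher and 3 of the lower genes. Most of the differences lay on the 3bKI side: of the 151 higher genes, 98 fell in 3bKI against normal liver, where 7.05% of all genes fell, and 10 rose in 1KI, where 2.21% rose. Of the 32 lower genes, 15 rose in 3bKI, where 5.17% of all genes rose, and 5 fell in 1KI, where 1.29% fell. These base comparisons share their normal arrays with the difference and are no separate evidence. The count rests on all 9 tumours: without any 1 of them, 6 to 34 of the 151 and 0 to 5 of the 32 genes were still called, with 34 and 5 when 1KI replicate 4 was left out and 30 and 3 without 3bKI replicate 2. With sex as a covariate, in a fit that also left out 3bKI replicate 2, 12 and 2 of them were still called. The part of sex in that loss was not tested apart from the missing tumour. Every one of the 183 kept its direction in these settings. When a tumour is left out this is fixed in advance, since the groups do not overlap.

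Hsd17b13, which encodes an enzyme of hepatocyte lipid droplets in the hydroxysteroid dehydrogenase family, differed most. Its log2 levels were 10.97, 11.77, 12.17, 12.24 and 11.02 in the 1KI tumours of normalization 1. In the 3bKI tumours of normalization 2 they were 7.27, 6.83, 6.60 and 6.52. Normal livers fell into separate groups: wt replicate 3 and 3aKO replicates 3, 4 and 5 lay at 11.24, 10.54, 12.51 and 12.0 in normalization 1, and the other 8 lay at 6.93 to 8.10. All 5 1KI tumours lay within the range of those 4 livers, and the 3bKI tumours lay in or below the range of the other 8, which was 6.84 to 8.02 in normalization 2. The difference was 4.72 ± 0.30 (interval 4.05 to 5.39; adjusted p = 0.000631), a ratio of 26.4. Neither tumour group passed the test against all 12 livers. The change was 2.80 ± 0.89 in 1KI (adjusted p = 0.0799), and 3bKI gave -1.92 ± 0.98 (adjusted p = 0.202). Another probe set of the gene gave -0.10 ± 0.28 between the tumours, and in the normal livers of normalization 1 it was lowest in 3aKO replicates 4 and 5, at 5.66 and 5.39 against 8.29 to 10.13 in the rest. The call held without any single array and in females alone (4.10, adjusted p = 0.0159). It was lost with sex as a covariate (5.00, adjusted p = 0.0729), with the actin ratio as a covariate (3.44, adjusted p = 0.149) and with all 33 columns as independent samples (adjusted p = 0.0735).

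Sparcl1, an extracellular matrix protein related to osteonectin, was the next largest and lies in the same stretch of chromosome 5, with 2 measured genes between. It was at 1.60, 1.90, 1.98, 2.15 and 1.45 above the normal mean in 1KI and at -0.38, -0.69, -0.74 and 0.26 in 3bKI. On this scale the normal livers 3aKO replicates 4 and 5 were at 2.08 and 1.96, within the 1KI range. The difference was 2.21 ± 0.22 (interval 1.71 to 2.70; adjusted p = 0.00798), and Sparcl1 rose in 1KI against normal liver by 1.82 ± 0.46 (adjusted p = 0.0386). The call was lost with sex as a covariate (2.33, adjusted p = 0.0973), in females alone (1.75, adjusted p = 0.114), with the actin ratio (1.79, adjusted p = 0.176) and with all 33 columns (adjusted p = 0.103). Its highest normal livers in normalization 1 were 3aKO replicates 4, 5 and 3 and wt replicate 3, at 6.88, 6.72, 5.57 and 5.41, the livers that were high for Hsd17b13. The genes between them did not differ: Hsd17b11, another lipid droplet dehydrogenase, gave 0.12 ± 0.29, and Nudt9, an ADP-ribose hydrolase, gave 0.05 ± 0.09. Among the 19 other measured genes within 10 positions of Hsd17b13 on either side, none passed by limma's test and differences ran from -0.40 to 0.34. Which strain the alleles of this stretch came from was not tested.

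The Hsd17b13 start window of RefSeq, chr5:103977339-103977638 on the minus strand of GRCm38.p6, is shown because this gene carries the largest difference and because the window holds none of the E2F motifs searched.
Hsd17b13: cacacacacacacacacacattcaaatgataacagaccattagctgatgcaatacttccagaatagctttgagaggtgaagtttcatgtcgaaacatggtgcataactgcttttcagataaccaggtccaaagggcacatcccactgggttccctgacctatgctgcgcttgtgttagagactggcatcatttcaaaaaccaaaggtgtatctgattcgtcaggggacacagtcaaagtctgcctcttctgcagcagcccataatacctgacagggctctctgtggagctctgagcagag

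Apob, Tdo2, Slc7a2 and Prox1, all genes of hepatocytes, were higher in 1KI than in 3bKI and lay low in 3bKI. They were picked from the called genes, and the lists that hold Apob, Prox1 and Tdo2 had few called members. In the hepatocyte list 19 of 27 genes lay above 0 and 8 below (median 0.08, 2 called). In urea cycle and amino acid breakdown 12 of 26 lay above 0 and 14 below (median -0.03, 1 called). Apob, the structural protein of very low density lipoprotein, lay at 0.20, 0.63, 0.90, 0.14 and 0.09 in 1KI and at -1.22, -0.68, -1.16 and -0.94 in 3bKI. The groups did not overlap, with a difference of 1.40 ± 0.19 (adjusted p = 0.0228) and a fall in 3bKI of 1.00 on the log2 scale (adjusted p = 0.0227). Tdo2, the tryptophan dioxygenase that opens the kynurenine pathway, lay at -0.06, 0.34, 0.29, -0.15 and -0.02 in 1KI and at -0.55, -1.21, -1.47 and -0.68 in 3bKI. All 3 of its probe sets gave differences of 1.06 to 1.33, and its own difference was 1.06 ± 0.20 (adjusted p = 0.0481). Slc7a2, a transporter of arginine and other cationic amino acids, lay at 0.09, -0.55, 0.36, -0.10 and 0.05 in 1KI and at -0.75, -1.40, -1.20 and -0.93 in 3bKI, a difference of 1.04 ± 0.19 (adjusted p = 0.0467). Prox1, a transcription factor of hepatocyte identity, differed by 0.70 ± 0.09 (adjusted p = 0.0228). Its 3bKI values were -0.59 to -0.49 and its 1KI values 0.00 to 0.37.

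The other ranked genes higher in 1KI had varied roles. Retreg3, a receptor for autophagy of the endoplasmic reticulum, lay at -0.09 to 0.32 in 1KI and at -1.38, -1.20, -0.94 and -1.37 in 3bKI, a difference of 1.34 ± 0.13 (adjusted p = 0.00798), but its other probe sets gave 0.40 and -0.13. Taf15, an RNA-binding protein of the FET family, lay at -0.01 to 0.41 and at -0.89, -0.91, -0.81 and -1.16, a difference of 1.16 ± 0.12 (adjusted p = 0.00798), and a dimmer probe set gave 0.04 ± 0.11. Taok1, a kinase of the stress-activated cascade, differed by 1.13 ± 0.12 (adjusted p = 0.00798), and its other probe sets gave smaller values of -0.19 to 0.42. Mtm1, the X-linked phosphoinositide phosphatase myotubularin, lay at 0.35 to 2.24 in 1KI and at -1.43 to -0.48 in 3bKI, a difference of 1.95 ± 0.36 (adjusted p = 0.0467), with 1.80 and 0.42 in its other probe sets. Lyst, a regulator of lysosome size, differed by 1.03 ± 0.18 (adjusted p = 0.0414), and Naa16, an auxiliary subunit of an amino-terminal acetyltransferase, by 1.01 ± 0.12 (adjusted p = 0.0199). Other probe sets gave 0.83 and -0.09 for Lyst and 0.50 for Naa16. Bzw2, a modulator of translation initiation, gave 1.26 ± 0.23 (adjusted p = 0.0467), but its other probe sets gave -0.09 and 0.20. Psmd2, a subunit of the proteasome's regulatory particle, was the 1 called member of 33 proteasome genes, at 0.53 ± 0.08 (adjusted p = 0.0302), and a dim probe set of it gave 0.12. Leaving out any 1 tumour ended the call for Mtm1, Bzw2, Tdo2, Slc7a2, Lyst and Psmd2, with adjusted p up to 0.119, and kept it for Sparcl1, Retreg3, Taf15 and Taok1. Of the 9 such settings, Naa16 stayed called in 3, Apob in 2 and Prox1 in 1.

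**Figure D2:**
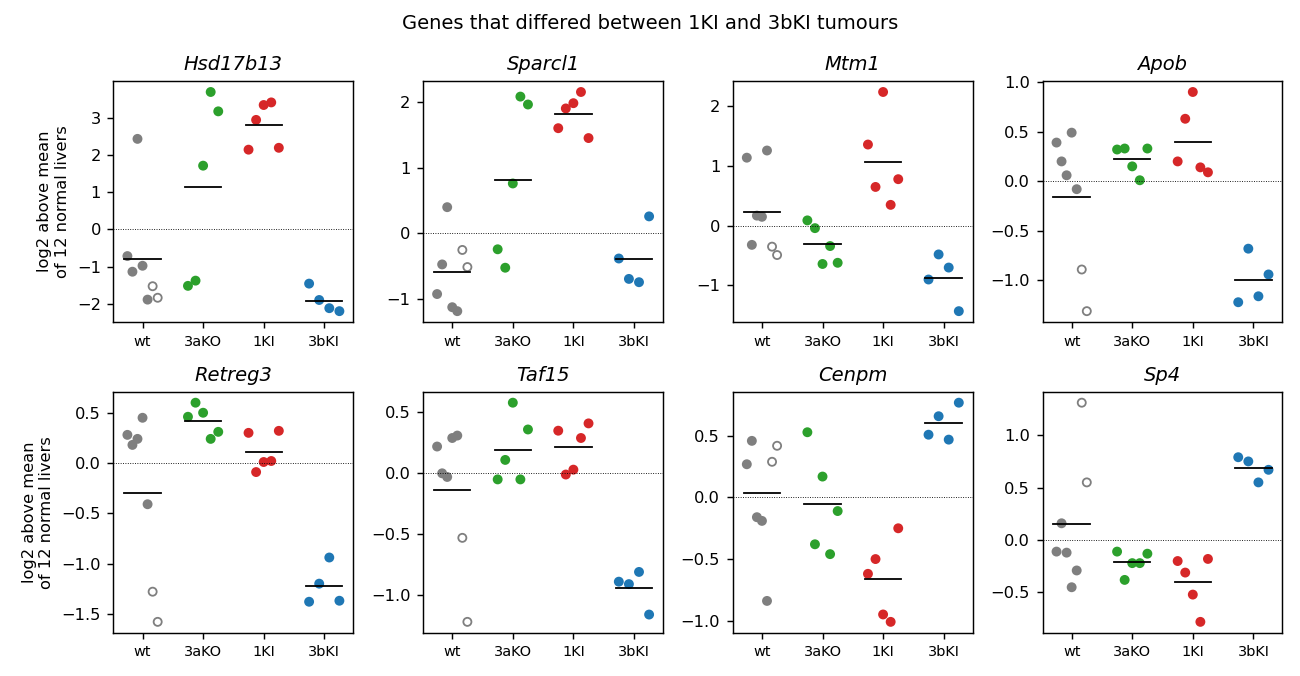
Log2 values above the mean of the 12 normal livers, by array, for 8 genes that differed between the tumour groups. Points are arrays in the groups wt, 3aKO, 1KI and 3bKI, open circles are wt replicates 6 and 7, bars are group means, and normal arrays are averaged over both normalizations. The 1KI and 3bKI points do not overlap in any panel, and in the Apob and Retreg3 panels wt replicates 6 and 7 lie with the 3bKI tumours.

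Among the normal livers, wt replicates 6 and 7 sat with the 3bKI tumours for many of these genes. Over the 151 higher genes the median value was -0.32 in each of these livers, -0.45 to -0.40 in the 3bKI tumours, 0.13 to 0.18 in the 1KI tumours and -0.03 to 0.21 in the other 10 normal livers. Both livers lay below all 10 others in 80 of the 151 genes (53%), against 6.16% of all genes. Their values were in or below the 3bKI range in 83 and 81 of the 151 genes, against 4 to 23 genes in each of the other 10. For the 32 lower genes the medians were 0.21 and 0.26 in these livers, 0.26 to 0.38 in 3bKI, -0.24 to -0.18 in 1KI and -0.16 to 0.07 in the other normal livers. These are also the normal livers with the lowest actin ratios, and the 3bKI tumours share that range. With the actin ratio as a covariate, an alternative chosen after seeing the data, 6 of the 151 and 3 of the 32 genes were still called. Within 1KI, replicates 3 and 4 had the lowest ratios, 0.91 and 0.95, which still lay above the 3bKI range of 0.70 to 0.87. Their medians over the higher genes were 0.18 and 0.15, inside the range of their group. The genes were called from these same values, and a call favours a small spread within a group, so these medians cannot show the ratio's part. That part was not tested beyond the covariate. Leaving both livers out of the normal set kept 138 and 31 of the calls, since they enter both sides of the difference.

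The pattern was not uniform among the named genes. Apob was at -0.89 and -1.31 in wt replicates 6 and 7, and Retreg3 was at -1.28 and -1.58, as low as in the 3bKI tumours. Taf15 was at -0.53 and -1.22. With the actin covariate their differences became 0.95, 0.67 and 0.71. Tdo2, by contrast, was at -0.34 and 0.02 in these livers and Slc7a2 at -0.49 and 0.18, both well above the mean of the 3bKI tumours, and the covariate left differences of 1.01 (adjusted p = 0.0609) and 1.07 (adjusted p = 0.0621). Hsd17b13 was at -1.53 and -1.84 in these livers, within the range of most normal livers.

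**Figure D3:**
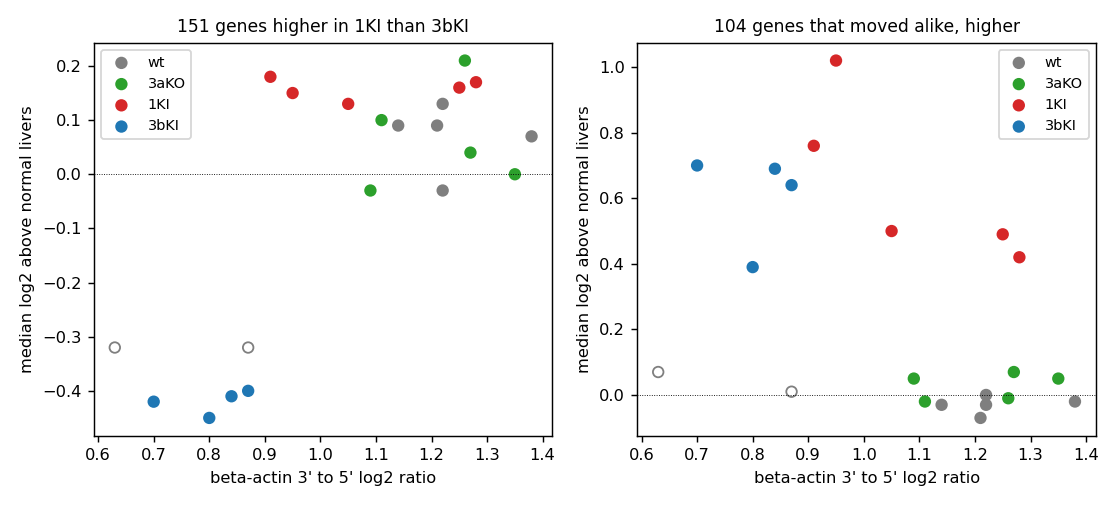
The x axes give each array's log2 beta-actin ratio, 3' end over 5' end. The left y axis gives the median log2 value, above the normal mean, of the 151 genes higher in 1KI, and the right one that of the 104 genes that rose alike. Open circles are wt replicates 6 and 7, which lie at -0.32 near the 3bKI tumours on the left and at 0.01 and 0.07, with the other normal livers, on the right.

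The called genes also differed in level and length. The 151 higher genes had a median log2 level of 8.10 and a median span in RefSeq of 49.2 kb, and the 32 lower genes had 5.69 and 11 kb, beside 6.45 and 20.2 kb over all genes. In 5 bins of genes by level, from dim to bright, the median difference was -0.11, -0.15, -0.05, 0.11 and 0.09. Dim genes thus tended to lie lower and bright genes higher in 1KI than in 3bKI. The spread of values per array moved with this: the interquartile range was 3.77 to 4.01 in 1KI, 3.52 to 3.72 in 3bKI, and 3.66 and 3.60 in wt replicates 6 and 7 of normalization 1. When the arrays were quantile normalized within each run, 36 genes were higher and 8 lower, of which 34 and 8 were among those above. Centring each array gave 202 and 16.

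Among the 32 genes lower in 1KI, Cenpm, a component of the centromere's constitutive network, differed most of the ranked genes. It lay at -0.62, -0.50, -0.95, -1.01 and -0.25 in 1KI and at 0.51, 0.66, 0.47 and 0.77 in 3bKI, against -0.84, 0.03 and 0.53 as the lowest, median and highest normal liver. Thus 1KI lay below and 3bKI above the normal median, at -0.67 ± 0.20 (adjusted p = 0.0668) and 0.60 ± 0.20 (adjusted p = 0.0588) from the normal mean. The difference between them was -1.27 ± 0.16 (interval -1.63 to -0.91; adjusted p = 0.0228). With the actin covariate it was -1.17 (adjusted p = 0.0813), and wt replicates 6 and 7 were at 0.29 and 0.42. Cenpm and Rab5c, an early endosome GTPase, were the 2 of 25 lower genes with a start window in RefSeq that held an E2F motif. Both windows are on the minus strand of GRCm38.p6, at chr15:82244287-82244586 and chr11:100738166-100738465, with the motif in capitals 71 and 88 bases before the start. They are shown so that the match can be seen beside the values, and a match is no sign that an E2F binds there.
Cenpm: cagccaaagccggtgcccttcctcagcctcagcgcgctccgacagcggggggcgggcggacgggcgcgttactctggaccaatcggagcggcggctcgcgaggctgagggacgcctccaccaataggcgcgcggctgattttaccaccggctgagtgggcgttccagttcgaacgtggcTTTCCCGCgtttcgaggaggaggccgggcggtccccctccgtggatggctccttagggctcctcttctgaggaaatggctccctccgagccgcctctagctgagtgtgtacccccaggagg
Rab5c: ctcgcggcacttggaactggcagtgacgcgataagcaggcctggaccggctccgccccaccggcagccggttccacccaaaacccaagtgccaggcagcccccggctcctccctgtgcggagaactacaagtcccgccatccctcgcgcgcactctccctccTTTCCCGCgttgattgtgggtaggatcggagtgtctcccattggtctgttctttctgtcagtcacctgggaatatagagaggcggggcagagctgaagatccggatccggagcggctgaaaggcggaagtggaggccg

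The other ranked lower genes also had varied roles. Sp4, a zinc finger factor that binds GC boxes, lay at -0.20, -0.31, -0.52, -0.78 and -0.18 in 1KI and at 0.79, 0.75, 0.55 and 0.67 in 3bKI, a difference of -1.09 ± 0.13 (adjusted p = 0.0199). It was at 1.31 and 0.55 in wt replicates 6 and 7, and another Sp4 probe set gave 0.04 ± 0.17. Rab5c lay at -0.30 to 0.13 in 1KI and at 0.53 to 0.96 in 3bKI, and also at 0.99 and 0.77 in those 2 wild-type livers. Tgfb1i1, a focal adhesion adaptor, rose in 3bKI by 0.63 ± 0.11 (adjusted p = 0.00316) and differed by -0.70 ± 0.09 (adjusted p = 0.0228). Crip2, a LIM domain protein, differed by -0.77 ± 0.12 (adjusted p = 0.0319), and Sec14l3, a lipid transfer protein, by -0.76 ± 0.14 (adjusted p = 0.0481). Trim10, Zfp429, Zdhhc14, Map3k3, Pax6 and Prp2 had differences of -0.59 to -0.53 with adjusted p of 0.0290 to 0.0467. Pax6, an eye and islet factor, and Prp2, a salivary proline-rich protein, had dim probe sets, with mean log2 levels of 4.5 and 5.0. The 4 other Pax6 probe sets gave -0.13 to 0.05, and those of Sec14l3 gave -0.27 and -0.14. When each of the 9 tumours was left out in turn, Cenpm, Sp4 and Tgfb1i1 stayed called in 3 settings. Crip2 and Zfp429 stayed called in 1, and the other ranked lower genes in 0.

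Of the immune cell lists, Ighm and Ccr2 were called lower in 1KI than in 3bKI. Ighm, the immunoglobulin mu heavy chain, lay at -1.36, -1.78, -1.98, -2.14 and -1.12 in 1KI and at -0.80, 0.36, -0.31 and -0.25 in 3bKI. By the probe set used, it fell in 1KI by 1.68 on the log2 scale (adjusted p = 0.0155), and the difference was -1.42 ± 0.26 (adjusted p = 0.0467). That call was lost without any 1 tumour, and the difference was -0.84 with sex as a covariate (adjusted p = 0.315). Another Ighm probe set gave changes of -1.39 in 1KI and 0.12 in 3bKI. The rest gave -0.62 to 0.22 in 1KI and 0.02 to 1.38 in 3bKI, all with negative differences. Whether Ighm showed a fall in 1KI or a rise in 3bKI thus depended on the probe set. Ccr2, the chemokine receptor of infiltrating monocytes, differed by -0.52 ± 0.09 (adjusted p = 0.0460), and its 4 probe sets gave -0.73 to -0.22. Marco, a scavenger receptor of Kupffer cells, fell in 1KI (-2.29 ± 0.59, adjusted p = 0.0441). Its 3bKI values were 0.35, -1.71, 2.33 and -0.52, and the difference of -2.40 ± 0.78 did not pass (adjusted p = 0.13). In bulk tissue, fewer cells of a type and less RNA per cell cannot be told apart.

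By list, 22 of 26 macrophage and Kupffer cell genes lay below 0 in the difference (median -0.51, 1 called), 21 of 22 T and NK cell genes (-0.39, 0 called), 13 of 15 B and plasma cell genes (-0.27, 1 called) and 13 of 13 neutrophil genes (-0.38, 0 called). Over all genes 55.6% lay below 0 and the median was -0.04. The mean over the neutrophil list was -0.37 to -0.10 in the 1KI tumours and 0.01 to 0.64 in the 3bKI tumours, and the means of the other 3 lists overlapped between the groups. Most neutrophil and T cell probe sets were dim: 9 of 13 and 13 of 22 lay in the 2 dimmest level bins. Lists of tissues that should be absent moved the same way at smaller size, with 11 of 12 pancreas acinar genes (median -0.22) and 12 of 14 adipocyte and muscle genes (-0.13) below 0 and 0 called. The part of dimness in the immune values was not tested. The medians of the immune lists stayed below 0 with quantile normalization, at -0.53 to -0.22, and without any single array. Without 3bKI replicate 3 the macrophage median was -0.24 and the T and NK cell median -0.15.

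Of 49 mitosis and G2/M genes, 17 rose in 1KI and 20 in 3bKI, where 2.21% and 5.17% of all genes rose. By limma's test 0 of them differed between the groups, although 47 of 49 lay below 0 with a median of -0.26. Of the 49, 36 lay in the 2 dimmest level bins. The list mean was 0.04, 0.33, 0.65, 0.98 and 0.40 in the 1KI tumours and 0.08, 2.03, 0.80 and 0.16 in the 3bKI tumours. The means of 1KI replicate 1 and 3bKI replicates 1 and 4 lay within the range of the normal livers, -0.19 to 0.21. The high 3bKI value was replicate 2, and without it the median difference became 0.12. With sex as a covariate the median difference was 0.08, with 32 of 49 above 0. That fit also left out 3bKI replicate 2, so it is no separate check. In DNA replication and G1/S, Cdc6, which loads the replicative helicase, rose in 1KI (1.18 ± 0.22, adjusted p = 0.0101) and gave 0.41 ± 0.20 in 3bKI (adjusted p = 0.171), with a difference of 0.77 ± 0.34 (adjusted p = 0.224). Cdc25a, the phosphatase that activates CDK2, gave 0.52 ± 0.16 (adjusted p = 0.119).

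Of 22 genes under p53, 10 rose in 1KI and 5 in 3bKI, where 2.21% and 5.17% of all genes rose, and 0 differed between the groups by limma's test. Mdm2, the ubiquitin ligase of p53, lay at 0.23 to 0.84 in 1KI and at -0.23 to 0.32 in 3bKI, a difference of 0.55 ± 0.15 (adjusted p = 0.0884). Zmat3 gave 0.57 ± 0.18 (adjusted p = 0.121). Bbc3, the pro-apoptotic Puma, went the other way at -0.74 ± 0.16 (adjusted p = 0.0533). The list median of 0.23 was 0.07 without 3bKI replicate 2 and 0.11 with sex as a covariate, again without that replicate. Endoplasmic reticulum stress genes lay above 0 in 23 of 25 (median 0.24, 0 called), but the median was 0.09 with sex as a covariate and -0.07 in females alone.

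Lists of liver function held few called genes. Hepatocyte identity and secreted proteins had a median difference of 0.08 with 2 of 27 called (Apob and Prox1), urea cycle and amino acid breakdown -0.03 with 1 of 26 called (Tdo2), and fatty acid synthesis 0.19 with 0 of 20 called. With sex as a covariate the fatty acid synthesis median was 0.69, with 20 of 20 above 0, and in females alone it was 0.49. In females alone the urea cycle list had a median of 0.30, with 23 of 26 above 0. Of 35 respiratory chain genes, 13 fell in 3bKI and 0 in 1KI, where 7.05% and 1.29% of all genes fell, and 0 differed. The median difference was 0.03, and it was 0.16 without 1KI replicates 3 and 4 (33 of 35 above 0) and in females alone (34 of 35). G6pc, the last enzyme of glucose release, fell in 1KI by 2.08 on the log2 scale (adjusted p = 0.0298) and gave 0.09 ± 0.31 in 3bKI (adjusted p = 0.872). Its 1KI values were -1.82, 0.40, -3.46, -3.73 and -1.78, and the difference of -2.17 ± 0.75 did not pass (adjusted p = 0.143). Pericentral and Wnt genes had a median of -0.27, which became 0.50 without 1KI replicates 3 and 4. Male-biased liver genes had 0.73 and female-biased ones -0.59, with 0 called in either, and the sexes of the 2 tumour groups are unequal: with sex as a covariate these medians were -0.09 and 0.39. Circadian clock genes had a median of 0.49 with 0 of 19 called, and the times of sampling are not given in the sources used here.

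**Figure D4:**
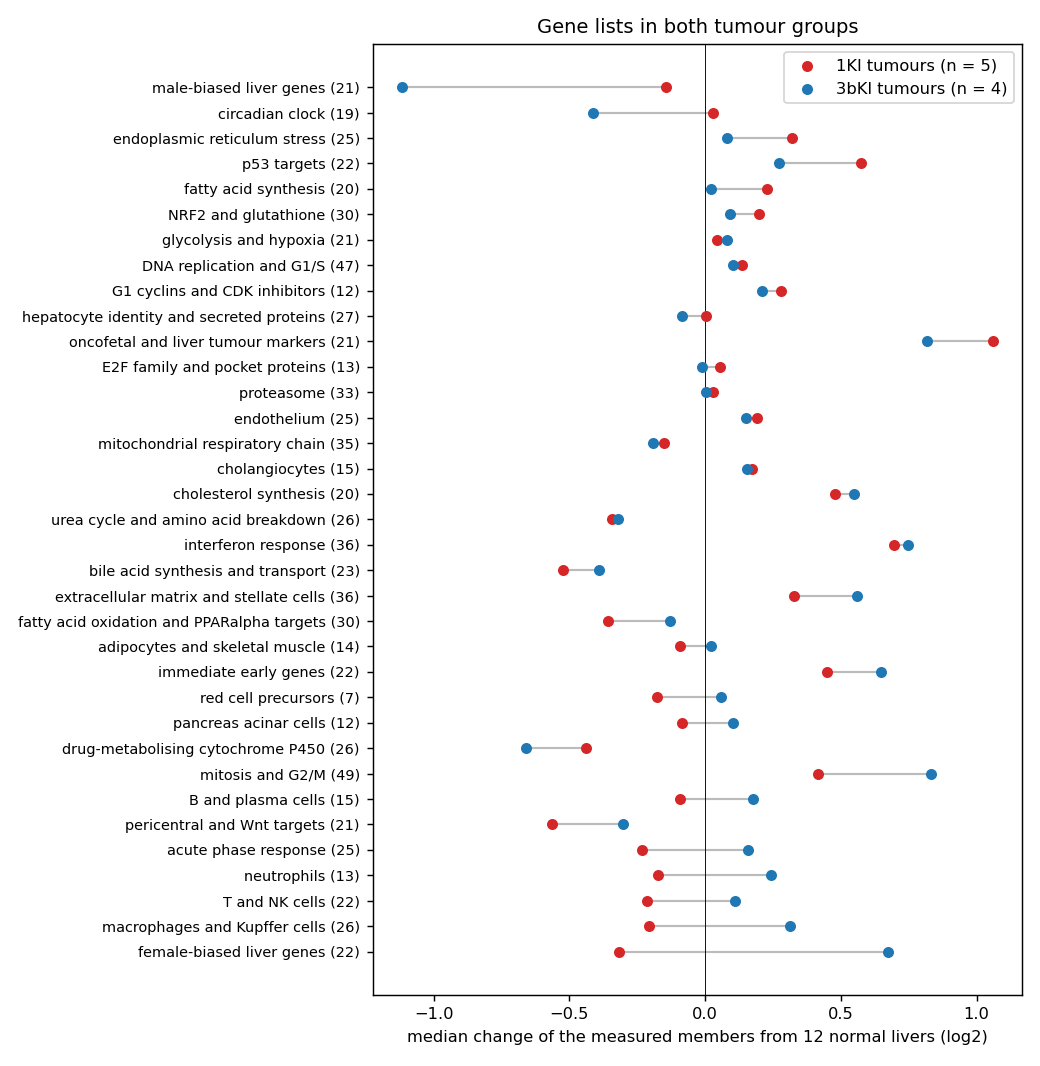
Median log2 change of the measured members of each gene list from the 12 normal livers, in 1KI and in 3bKI tumours, ordered by the median difference between the groups. The lists lie from the female-biased genes (-0.59) and macrophages (-0.51) at the low end to the male-biased genes (0.73) at the high end. For cytochrome P450 genes (-0.23) and for glycolysis and hypoxia (0.09) the order of the plotted medians is opposite to the sign of the median difference.

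Genes that moved alike were defined by passing limma's test in both tumour groups against normal liver, with the same sign and with a 95% interval of the difference inside -1 to 1. This held for 104 higher genes (0.572% of those tested) and 70 lower genes (0.385%). Both comparisons use the same 12 normal livers, so the counts are a description and were given no further test. In all, 196 genes passed in both groups as higher and 83 as lower, of which 92 and 13 had a wider interval, and 2 genes passed with opposite signs. Scd2, a stearoyl-CoA desaturase, shows such an interval: it rose in 1KI by 2.92 and in 3bKI by 1.21, with tumours from 0.03 to 5.99 and an interval of -1.04 to 4.46. Ifi27, an interferon-induced gene, rose by 1.88 and 1.24, with an interval of 0.08 to 1.21. At the limit itself, Fstl1 lay just inside with an interval of -0.98 to 0.24, and Ncapg2, a condensin subunit, just outside with a lower bound of -1.0037.

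The genes that rose alike included an immediate early gene, a fetal growth factor and matrix genes. Jun, a subunit of AP-1, lay at 0.80, 2.10, 1.48, 2.55 and 1.83 in 1KI and at 1.32, 2.53, 1.80 and 1.48 in 3bKI, against -0.55 to 0.48 in the normal livers. No tumour overlapped with a normal liver, the rises were 1.75 ± 0.21 (adjusted p = 0.000422) and 1.78 ± 0.19 (adjusted p = 0.000163), and the difference was -0.03 (interval -0.83 to 0.77). Igf2, the growth factor silenced in adult liver, lay at 2.12, 1.63, 0.84, 0.99 and 1.11 in 1KI and at 0.99, 1.36, 2.38 and 1.00 in 3bKI, all above the normal range of -0.56 to 0.27. Its rises were 1.34 ± 0.17 (adjusted p = 0.000754) and 1.43 ± 0.19 (adjusted p = 0.000631), while a dim probe set gave 0.00 and 0.43. Oasl1, an interferon-induced regulator, rose by 1.5 and 1.59, and wt replicate 6 was at 1.31, within the tumour range.

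Matrix and stromal genes followed. Col1a2, a chain of type I collagen, lay at 0.58, 1.02, 1.61, 1.87 and 0.65 in 1KI and at 0.59, 1.15, 1.73 and 1.41 in 3bKI, with a highest normal value of 0.47. Vim, the intermediate filament of mesenchymal cells, rose by 0.92 ± 0.18 (adjusted p = 0.0126) and 1.07 ± 0.23 (adjusted p = 0.00869). Fstl1, a secreted glycoprotein, rose by 1.11 and 1.48, and Ccn2, a matricellular growth factor, by 0.97 and 1.08. For Ccn2, 3bKI replicate 1 (-0.14) and 1KI replicates 1, 2 and 5 lay within the normal range of -0.95 to 0.91. Of 36 matrix and stellate cell genes, 11 rose in 1KI and 15 in 3bKI, beside 2.21% and 5.17% of all genes, and 4 met the rule for moving alike. Cldn7, a tight junction protein, rose by 1.16 and 1.22, Bicc1, an RNA-binding protein, by 1.08 and 0.90, and Enc1, an actin-binding protein, by 0.96 and 1.00. Trem2, a receptor of lipid-associated macrophages, rose by 0.31 and 0.51, and Itgax, an integrin of dendritic cells and macrophages, by 0.59 and 0.86. Ccne1, the cyclin E that E2Fs are known to induce, rose by 0.49 and 0.45 with a difference of 0.04 ± 0.15, but another probe set gave changes of 1.04 and 0.30. Another Trem2 probe set gave -0.04 and 0.33. Mad2l1, of the spindle checkpoint, rose by 0.69 and 0.74, with 1KI replicate 1 (0.21) and 3bKI replicate 1 (0.07) within the normal range.

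**Figure D5:**
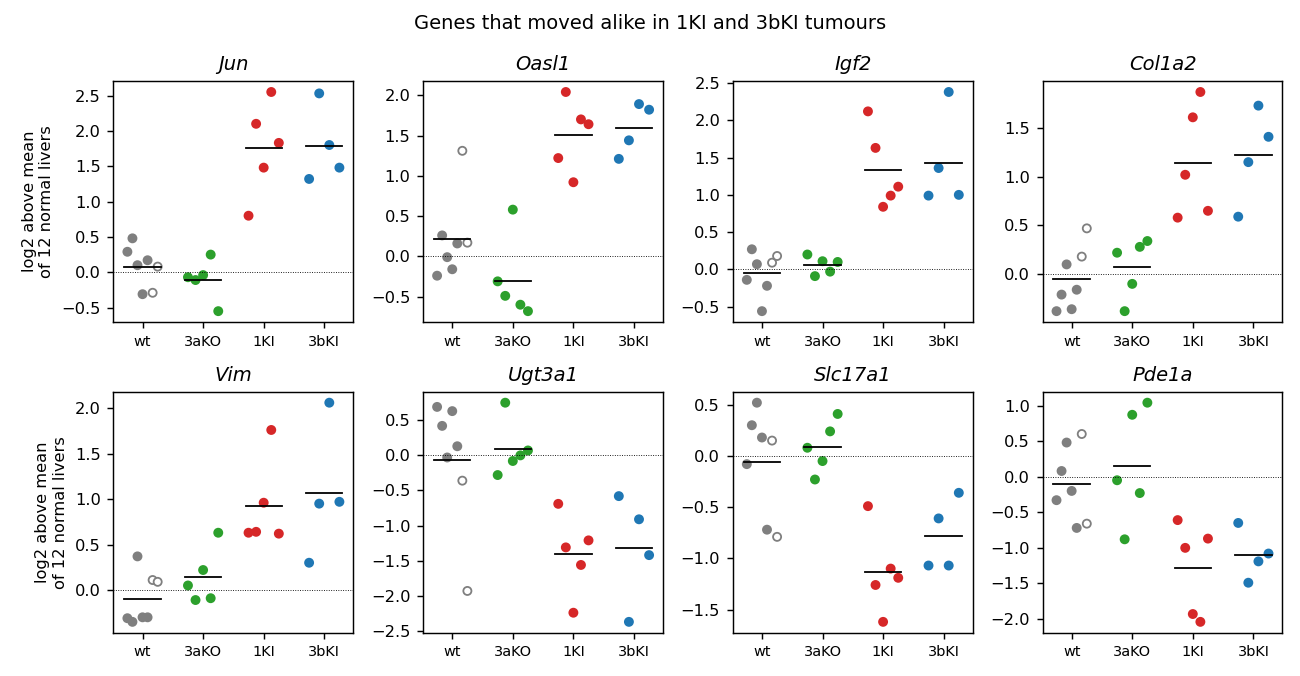
Log2 values above the mean of the 12 normal livers, by array, for 8 genes that moved alike in both tumour groups, with groups, bars and open circles as in the plot of genes that differed. The 1KI and 3bKI points overlap in each panel, and for Jun and Igf2 every tumour lies above every normal liver.

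The largest named falls shared by both groups included several enzymes and transporters. Ugt3a1, a glycosyltransferase of foreign compounds, lay at -0.69, -1.31, -2.24, -1.56 and -1.21 in 1KI and at -0.58, -2.37, -0.91 and -1.42 in 3bKI. In 1KI it fell by 1.40 on the log2 scale (adjusted p = 0.0298), and the 3bKI tumours fell by 1.32 (adjusted p = 0.0327), and wt replicate 7 was at -1.93. Slc17a1, a urate and phosphate transporter, fell by 1.13 and by 0.77, and Pde1a, a cyclic nucleotide phosphodiesterase, by 1.29 and by 1.10. Sugct, a mitochondrial CoA transferase, fell by 0.76 and by 0.86, and Fn3k, which repairs glycated proteins, by 0.84 and by 0.73. Single tumours lay within the normal range, such as 1KI replicate 2 for Sugct (-0.07) and 1KI replicate 1 for Fn3k (-0.08). Aldh4a1 and Haao of proline and tryptophan breakdown, Slc27a5 of bile acid conjugation, Acadvl and Acads of fatty acid oxidation, and the clock output factor Hlf also fell in both, with changes between -0.78 and -0.36. Slc27a5 fell by 0.54 in each group, with a difference of 0.00 ± 0.24.

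Genes that moved alike passed tests against normal livers that include wt replicates 6 and 7. Genes in which these livers moved with the tumours were thus less likely to be chosen. Over the 104 genes that rose alike the median was 0.01 and 0.07 in these livers, 0.42 to 1.02 in 1KI and 0.39 to 0.70 in 3bKI. Over the 70 that fell alike it was -0.01 and -0.16, against -0.78 to -0.23 and -0.61 to -0.32. The other 10 normal livers had -0.10 to 0.09 over these genes. Both livers lay below all 10 others in 7 of the 70 (10%), against 6.16% of all genes. They lay above all 10 in 3 of the 104 (2.88%), against 6.08%. The size of the shared change varied within a group, since 1KI replicates 3 and 4 had medians of 0.76 and 1.02 over the rising genes and the other 1KI tumours 0.42 to 0.50. Without 1KI replicate 3 the counts fell to 40 and 7, without replicate 4 to 48 and 10, and without both to 23 and 2. Without 3bKI replicates 2, 3 and 4 in turn they were 64 and 34, 50 and 37, and 61 and 58. Leaving out single normal livers gave 66 to 112 and 31 to 92. With the actin covariate, 12 rose and 0 fell alike.

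Start windows gave no large contrast for the E2F motif. The strings searched were TTTCCCGC, TTTCGCGC, TTTGCCGC and TTTGGCGC on both strands, and at least 1 was found in 744 of 32851 RefSeq windows of 300 bases (2.26%) and in 550 of the 14452 tested genes with a window (3.81%). It was found in 5 of 128 higher genes (3.91%), 2 of 25 lower genes (8%), 7 of 88 genes that rose alike (7.95%) and 2 of 59 that fell alike (3.39%). In the DNA replication list, which is built of known E2F targets, 18 of 40 windows held a match (45%), and in the mitosis list 2 of 40 (5%). These shares describe letters in a short window and were not tested.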

How the data were processed

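RNA of 21 mouse liver or liver tumour arrays was analysed from 1 table of 33 columns. Its values are log2 expression per Affymetrix probe set, normalized by the authors in 2 runs, as the sample titles show. Per the labels' protocols, Trizol RNA was made into biotin-labelled cRNA. The normalization method is not given in the sources used here. The number of arrays limits the precision.

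Probe sets with 1 gene symbol in the platform annotation were kept (34945 of 45101, of which 34741 matched RefSeq by Entrez ID), and the probe set with the highest mean stood for a gene. This left 18193 genes, 9010 of them with a choice of probe sets. Each tumour value was taken above the mean of the 12 wt and 3aKO columns of its run, and 1KI and 3bKI were compared with limma 3.58.1 (lmFit and eBayes, run under R 4.3.3). Tests were two-sided, with Benjamini-Hochberg adjustment over all genes, and a gene was called at an adjusted p under 0.05. Errors are moderated SEs. Tumours were also compared with the 12 livers within each run. The fit was tested on simulated data.

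Lists were described by counts and medians, with no test. Named genes were E2f1, E2f3, the 12 largest called differences without overlap and the 12 largest alike changes in each direction, and per list up to 4 members of lowest p and up to 3 alike. Hsd17b11, Nudt9 and Ncapg2 were named after their values were seen. Rankings by size skipped predicted genes and antigen receptor segments. Sex was called from Xist (log2 above 10) and the mean of 3 Y-linked genes (below 5 in females). Fits with sex as a covariate left out 3bKI replicate 2 and took in the normal livers. The genes, lists and tests were chosen with earlier results of these data known. The alternatives tried were the normal set, scaling, filtering, probe set choice, variance model, weights, spread, pairing, sex, single arrays and, added later, the actin ratio and wt replicates 6 and 7. Promoter windows came from RefSeq (GRCm38.p6).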

Additional observations from a re-analysis of the deposited data

Results flagged for a closer look

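The tumour groups differed from each other, relative to the same normal livers, by a test of the difference itself: limma called 151 genes higher and 32 lower in 1KI than in 3bKI.

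Single arrays stood far from the rest of their group in 13 of 304 groups examined, over named genes and list means, where chance gives about 1 in 20. Values are log2 above the normal mean. Among the genes that differed, Hsd17b13 was at 2.43 in wt replicate 3, with the next wild-type liver at -0.72. Lyst was at -0.68 in wt replicate 7. Rab5c was at -0.77 in 3aKO replicate 4 and at -0.30 in 1KI replicate 1. Zfp429 was at 0.36 in wt replicate 6. Zdhhc14 was at 0.46 in wt replicate 7 and at 0.29 in 3bKI replicate 2, where the others of its group were at 0.41 to 0.43.

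Among genes that moved alike, Oasl1 was at 1.31 in wt replicate 6 and Ugt3a1 at -1.93 in wt replicate 7. Aldh5a1, an enzyme of GABA breakdown, was at -0.66 in wt replicate 7. Cacna1d, a calcium channel subunit, was at -0.50 in 3bKI replicate 2. The mean of the NRF2 and glutathione list was -0.06 in 1KI replicate 3, and that of the proteasome list was 0.22 in 1KI replicate 4. Of the 13, 6 were in wt replicates 6 or 7.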

How the results depend on the processing

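Counts are given as higher then lower. For the difference between tumours, with 151 and 32, the lowest and highest counts without 1 array were 6 and 187 higher and 0 and 40 lower. They ran from 103 to 697 and 25 to 447 for 1KI against normal liver (402 and 234 in full), from 465 to 1266 and 557 to 1726 for 3bKI (941 and 1283), and from 40 to 128 and 7 to 134 for genes moving alike (104 and 70). The lowest difference count was without 1KI replicate 1 and the lowest alike counts without 1KI replicate 3.

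Anchoring on wt alone left 38 and 6 in 1KI, 199 and 178 in 3bKI, and 13 and 0 alike. Anchoring on 3aKO alone gave a difference of 231 and 69, 0 and 0 in 1KI, 531 higher in 3bKI, and 0 and 0 alike. Quantile normalization gave a difference of 36 and 8 and 367 lower in 1KI. Centring gave 16 lower in the difference, 434 lower in 1KI, 604 and 2148 in 3bKI and 159 lower alike. Every probe set as a unit gave 632 and 180, with 624 higher in 1KI, 1546 and 2342 in 3bKI and 159 higher alike. A trended, robust variance gave 396 and 209, with 60 and 45 alike, and array weights 507 and 294, with 159 and 62 in 1KI and 67 and 16 alike. Pooling the spread with the normal arrays gave 586 and 517. Separate variances gave 55 lower and all 33 columns as samples 60 lower. Sex as a covariate, without 3bKI replicate 2, gave 13 and 8, 235 and 199 in 3bKI and 36 lower alike. Females alone gave 2 and 0, 25 and 4 in 1KI, 223 and 295 in 3bKI and 11 and 0 alike. Without 1KI replicates 3 and 4 the counts were 12 and 3, 67 and 7 in 1KI and 23 and 2 alike, and without 3bKI replicate 2 they were 31 and 5, 499 and 557 in 3bKI and 64 and 34 alike.

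The replicate block gave 0 and 0 in the difference by limma, 160 and 81 in 1KI and 57 and 29 alike. With each group's mean removed, same-numbered tumours correlated at 0.303, -0.309, -0.0653 and -0.349. These few values cannot settle whether the numbers pair the samples. Chosen after seeing the data, the actin covariate gave 9 and 4, 23 and 3 in 3bKI and 12 and 0 alike, and leaving out wt replicates 6 and 7 gave 262 higher in 1KI and 1519 and 2035 in 3bKI. The cause was not tested for these, beyond fewer samples in some. E2f1, which was not called, changed sign between settings, from -0.13 to 0.03 without single arrays. The called differences named in the text kept their sign in every setting in which they were measured. Where groups do not overlap, leaving out tumours cannot turn a sign. With every probe set as a unit, only the probe set that stood for the gene was followed. Other probe sets of some genes went the other way, such as -0.10 for Hsd17b13 and 0.04 for Sp4. In 3bKI the balance of higher to lower calls turned with the sex and actin covariates. The replicate block also ended the Hsd17b13 and Sparcl1 calls (adjusted p = 0.238 for each).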

Other observations

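3bKI replicate 2 had a log2 Xist level of 6.56 and a mean of 3.16 over 3 Y-linked genes, so that neither sex's pattern was met.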
